A study of Mus musculus with 9 samples.

Results

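Mitochondrial ribosomal protein genes are the nuclear genes for the protein part of the ribosome that works inside mitochondria. They were taken here as the protein-coding genes whose symbol is Mrpl or Mrps followed by a number, which gave 78 of 21887 annotated protein-coding genes, on 17 chromosomes. Per gene, the bidirectional region centred within 1 kb of either gene end with the highest mean count over all libraries was used, out of 174289 regions counted in 600 bp windows. A region was found for 64 of the 78 genes. Mrpl46 and Mrps11 shared 1 region, so the values below rest on 63 distinct regions. No region lay near Mrpl18, Mrpl22, Mrpl24, Mrpl28, Mrpl4, Mrpl41, Mrpl42, Mrpl53, Mrps14, Mrps18c, Mrps25, Mrps28, Mrps34 or Mrps36, and these 14 genes carry no value.

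The counts came from PRO-seq, a nuclear run-on method that reads the positions of actively transcribing RNA polymerase, in mouse embryonic stem cells. All 9 libraries came from cells with a Firre knockout and a doxycycline-inducible transgene for Firre, a long non-coding RNA, grown with LIF and the inhibitors PD0325901 and CHIR99021. The 3 groups were cells without doxycycline (0 min) and cells treated with 1 ng/µL doxycycline for 15 min or 30 min, with 3 libraries each, and 1% Drosophila S2 nuclei were added to the nuclei. Cells given doxycycline without the transgene are not among these samples, so the drug and the induced RNA cannot be told apart in any comparison below. Nothing in the labels tells if the 3 replicates of a time were grown separately, and the error behind each p-value may be technical alone.

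The mitochondrial ribosome has a small subunit, which decodes the messenger RNA, and a large subunit, which joins amino acids. Its RNAs are encoded by mitochondrial DNA, while all its proteins are made in the cytosol and imported, and it makes only core subunits of the respiratory chain and ATP synthase. Many of its proteins have a counterpart in the bacterial ribosome and the others were added in the mitochondrial lineage. Doxycycline belongs to the tetracyclines, which bind the bacterial small subunit and are known to slow mitochondrial translation as well. PRO-seq of nuclei follows transcription of the nuclear genes and says nothing of translation in mitochondria.

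The libraries held 3813365 to 5980366 reads in regions. The summed level of 8 Firre regions was 2.48 to 4.92 CPM (counts scaled to each library's total and TMM factor) at 0 min, 274 to 338 CPM at 15 min and 776 to 791 CPM at 30 min, which follows the labels. Of 10 embryonic stem cell markers, 8 had a region, with 275 CPM for Sox2, 316 CPM for Nanog and 592 CPM for Dppa5a at 0 min, while Pou5f1 and Esrrb had none. Markers of fibroblasts, primitive endoderm, mesoderm and neural cells that had a region did not exceed 7.05 CPM (Sox1). On the second principal component, replicate 3 of 15 min stood apart at 85.6, against -55.1 to 16.5 in the other libraries, and results are given without it where it moved them.

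Most of the member regions sat on the genes' starts. Of 58 genes with a region and a start in the RefSeq promoter table, 53 had the window centre within 1 kb of a listed start, and for these the median distance was 80 bp. For Mrps21 and Mrpl2 the region lay at the 3′ end, 9208 and 4085 bp from the start, and that of Mrpl2 was beside the start of Cul7, a scaffold of ubiquitin ligases. Mrps23, Mrpl36 and Mrps2 also had their region more than 1 kb from a listed start.

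Neighbouring genes were common at these regions. In 32 of the 63 member regions (50.8%) another coding gene also ended or began within 1 kb, against 1476 of all 11663 regions at protein-coding genes (12.7%). For 19 members both genes started within 1 kb on opposite strands and ran apart, with a median of 128 bp between the starts. Among these pairs were Mrps12 with Sars2, the mitochondrial seryl-tRNA synthetase, at 147 bp, Mrpl49 with Fau, a precursor of a cytosolic ribosomal protein, at 192 bp, and Mrpl47 with Ndufb5, a complex I subunit, at 308 bp. Mrpl46 of the large subunit and Mrps11 of the small subunit started 42 bp apart. As both are members, their pair entered the count of 19 and the median from each side. Reads in a shared window cannot be assigned to 1 of the genes, and whether the counting used strand is not given in the sources used here.

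The RefSeq promoter table (GRCm38.p6, the assembly of mm10) held 69 of the 78 genes. The stretches below run from 150 bases before the listed start to 30 bases from it and belong to 5 of the members called at 15 min and to Mrpl12, the member with the highest level. Capitals mark matches, on either strand, to GCGCANGCG (the core bound by NRF1, a regulator of nuclear genes for mitochondrial proteins), GGGCGG (the GC box) and GCCAAT (the CCAAT box).
Mrpl14, chr17:45686199-45686378, plus strand: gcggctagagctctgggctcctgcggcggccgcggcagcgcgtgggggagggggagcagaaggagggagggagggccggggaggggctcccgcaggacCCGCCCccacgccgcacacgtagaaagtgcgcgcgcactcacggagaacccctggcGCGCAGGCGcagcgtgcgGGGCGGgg
Mrps12, chr7:28741792-28741971, minus strand: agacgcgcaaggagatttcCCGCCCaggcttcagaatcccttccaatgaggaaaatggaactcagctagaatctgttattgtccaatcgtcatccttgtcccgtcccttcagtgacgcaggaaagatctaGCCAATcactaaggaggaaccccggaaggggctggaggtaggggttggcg
Mrps33, chr6:39810907-39811086, minus strand: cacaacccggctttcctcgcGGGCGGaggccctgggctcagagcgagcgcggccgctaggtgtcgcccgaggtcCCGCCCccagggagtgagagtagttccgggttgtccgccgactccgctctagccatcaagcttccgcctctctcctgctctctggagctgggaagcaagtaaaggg
Mrps18b, chr17:35916411-35916590, minus strand: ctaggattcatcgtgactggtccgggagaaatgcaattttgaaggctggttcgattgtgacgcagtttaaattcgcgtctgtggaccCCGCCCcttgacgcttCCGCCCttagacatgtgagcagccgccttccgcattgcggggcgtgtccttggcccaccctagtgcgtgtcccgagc
Mrpl16, chr19:11770265-11770444, plus strand: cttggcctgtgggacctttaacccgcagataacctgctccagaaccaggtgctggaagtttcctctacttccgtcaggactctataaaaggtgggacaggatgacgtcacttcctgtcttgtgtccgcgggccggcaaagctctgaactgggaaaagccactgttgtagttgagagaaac
Mrpl12, chr11:120484487-120484666, plus strand: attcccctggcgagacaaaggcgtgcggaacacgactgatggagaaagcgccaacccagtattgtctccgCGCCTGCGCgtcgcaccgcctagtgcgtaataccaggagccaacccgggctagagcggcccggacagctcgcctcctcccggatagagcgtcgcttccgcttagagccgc

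In the Mrpl14 stretch the NRF1 core began at base 5 from the start, and in that of Mrpl12 at base -80 on the opposite strand. The Mrps12 stretch held a CCAAT box beginning at base -20, and that of Mrps18b held GC boxes beginning at bases -63 and -47. The Mrpl16 stretch held none of the motifs searched. Over the full length of the table's promoters, 250 bases before the start and 50 from it, the NRF1 core stood in 16 of 69 member promoters (23.2%), against 7.03% of the promoters of 27025 genes. These 27025 genes outnumber the 21887 annotated protein-coding genes, so they include other kinds of gene, whether or not a region was found. CCGGAAGT, the core bound by ETS factors such as GABP, stood in 12 members (17.4% against 4.31%), and AAGATGGCG, the core bound by YY1, in 8 members (11.6% against 1.64%). For the NRF1, ETS and YY1 cores the shares in 70 nuclear genes of oxidative phosphorylation were 28.6%, 7.14% and 10.0%. In 57 cytosolic ribosomal protein genes they were 14.0%, 19.3% and 5.26%. These motifs were thus not particular to the members. A CCAAT box stood in 7 members (10.1% against 16.7%) and a GC box in 34 (49.3% against 38.2%). The median GC content was 58.3% in member promoters and 52.7% in all, and a match is only a description of the letters.

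Before doxycycline the median over the 63 member regions was 42.6 CPM, with all 63 past the filter on low counts, against 5.70 CPM over the 54299 regions that passed it, 14.5 CPM over the 15011 of these at gene ends and 23.0 CPM over 9496 tested regions of protein-coding genes. The rule takes each gene's region of highest mean count, which raises the members' level against all regions and all gene ends, while the regions of protein-coding genes were picked in the same way. Every window is 600 bp long, so levels can be set side by side, but a shared window may also hold reads of another gene. Sharing was more common among member regions (50.8%) than among all coding-gene regions (12.7%). The 32 shared member regions had a median of 46.1 CPM at 0 min, and the other 31 had 38.7 CPM. The median member stood at the 77.6th percentile of all 11663 coding-gene regions, those under the filter on low counts included, and 57 of 63 were above the 50th. The cytosolic ribosomal protein genes were higher, with a median of 185 CPM over 62 regions. The nuclear genes of oxidative phosphorylation were close to the members, with 47.4 CPM over 67 tested regions, some of which are also member regions.

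The levels of the members spread over a wide range, from 7.14 CPM for Mrpl3, an early-assembling protein of the large subunit, to 253 ± 20.8 CPM (SD, n = 3) for Mrpl12, the large subunit's stalk protein that also binds the mitochondrial RNA polymerase. Mrps18b, a small-subunit protein of the mitochondrial lineage, followed at 197 ± 22.1 CPM (SD, n = 3). Mrpl51 had 138 ± 5.88, Mrpl49 111 ± 3.52 and Mrpl52 100 ± 4.76 CPM (SD, n = 3), and these were the next of the 5 highest over all libraries. The level of Mrpl12 was 271, 230 and 257 CPM in the libraries of 0 min, that of Mrps18b 186, 222 and 182 CPM, and these ranges did not overlap. At the low end, Mrps2 had 7.81 ± 2.42, Mrps23 7.97 ± 0.475, Mrpl23 12.8 ± 2.26 and the region of Mrpl46 and Mrps11 15.8 ± 4.92 CPM (SD, n = 3). The levels of Mrpl3, Mrps2 and Mrps23 did not differ beyond their spread. The windows of Mrps2 and Mrps23 were among those away from the listed start. Among the highest, the regions of Mrpl12, Mrps18b, Mrpl51 and Mrpl49 were shared with another coding gene (Hgs, Ppp1r10, Ncapd2 and Fau). Their levels cannot be assigned to the member alone. That of Mrpl52 was not shared.

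The medians of small- and large-subunit genes lay close together, with wide and overlapping ranges. At 0 min the median was 38.7 CPM (range 7.81 to 100) over 13 small-subunit genes with a bacterial counterpart and 41.1 CPM (7.97 to 197) over 8 small-subunit genes of the mitochondrial lineage. It was 40.1 CPM (7.14 to 253) over 25 large-subunit genes with a bacterial counterpart and 46.3 CPM (15.8 to 138) over 18 large-subunit genes of the mitochondrial lineage. Among genes near the ribosome's working centres, Mrps7, which binds the small-subunit RNA, had 100 ± 6.53 CPM, and Mrpl58, a peptidyl-tRNA hydrolase built into the large subunit, had 60.8 ± 3.60 CPM (SD, n = 3). Mrpl11, at the base of the stalk where translation factors dock, had 18.5 ± 4.56 CPM (SD, n = 3). The region of Mrps7 was shared with Gga3, which starts 224 bp away on the opposite strand.

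**Figure D1:**
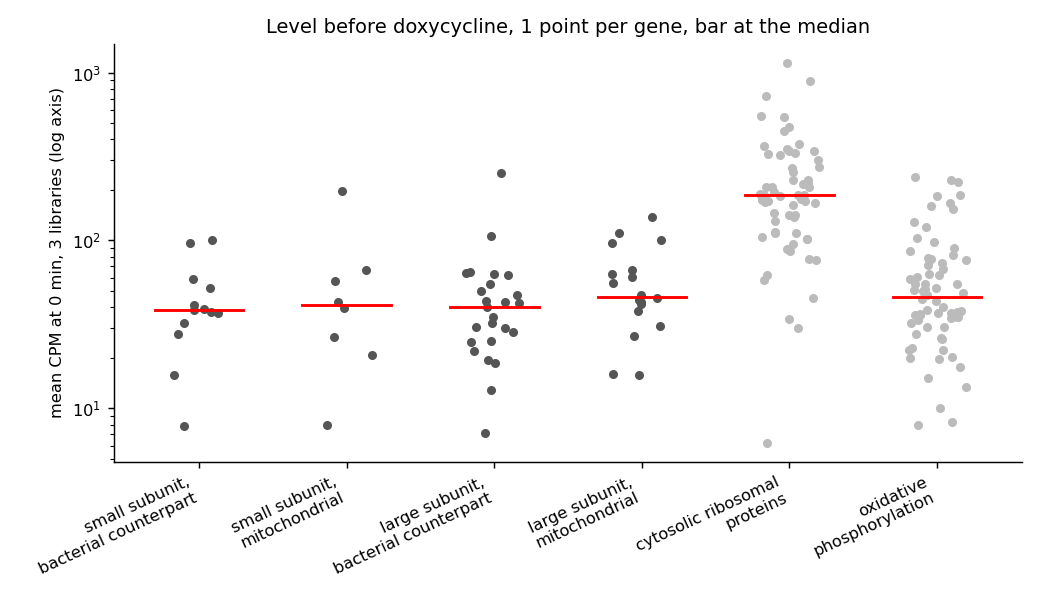
Mean CPM at 0 min (log axis) of each gene, over 3 libraries, by subunit and ancestry, beside cytosolic ribosomal protein genes and nuclear genes of oxidative phosphorylation. Red bars are medians. The 4 classes of members have medians between 38.7 and 46.3 CPM, and the cytosolic ribosomal protein genes lie higher, at 185 CPM.

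The summed level of the members hardly moved over the time course. It was 3253 to 3339 CPM at 0 min, 3150 to 3630 CPM at 15 min and 3221 to 3354 CPM at 30 min, so the groups overlapped. The members took 0.314% to 0.357% of the reads in regions. In these bulk samples fewer transcribing cells and less RNA per cell cannot be told apart. Levels are shares of the reads in regions, and the Drosophila reads were not analysed here.

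At 15 min against 0 min, 8 of 63 member regions changed (edgeR's quasi-likelihood test, Benjamini-Hochberg adjusted p under 0.05 over all 54299 regions). Those of Mrps18b, Mrpl16 and Mrpl35 rose, and those of Mrpl14, Mrpl34, Mrps33, Mrps21 and Mrps12 fell, by 25.2% to 44.5% in the fit. In the same comparison 8.25% of all tested regions were called, 4.29% higher and 3.96% lower, and 9.85% of those at gene ends, 1.81% higher and 8.04% lower. The members' share of 12.7% is 8 regions, and the calls went both ways. DESeq2's Wald test also called 8, with 3 higher and 5 lower. With the pair of groups alone 4 were called. With 1 library left out in turn 2 to 10 were called, the 2 without replicate 3 of 0 min and without replicate 1 or 2 of 15 min.

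Mrpl14 is a large-subunit protein at the face where the subunits meet, and its region also holds the start of Tmem63b, a membrane channel gene, 131 bp away on the other strand. The window at chr17:45685916-45686515 had 45.7, 34.7 and 48.5 CPM at 0 min, 23.7, 18.9 and 29.4 CPM at 15 min, and 39.2, 33.5 and 29.6 CPM at 30 min. All 3 libraries of 15 min were below all of 0 min, and those of 30 min reached into the range of 0 min. The log2 change at 15 min was -0.85 ± 0.17 (SE, n = 3 per group, edgeR adjusted p = 0.00277). This call held under all 18 alternatives that refitted or rescaled the counts, with log2 changes from -1.02 to -0.69 and adjusted p from 2.41e-05 to 0.023.

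Mrpl34, a large-subunit protein with a bacterial counterpart, had 46.6, 40.7 and 54.0 CPM at 0 min, 29.7, 25.5 and 38.1 CPM at 15 min, and 35.2, 43.2 and 33.9 CPM at 30 min (chr8:71464606-71465205). Each library of 15 min was below each of 0 min, the nearest values being 38.1 and 40.7 CPM. The log2 change was -0.60 ± 0.16 (SE, n = 3 per group, edgeR adjusted p = 0.0201), and the call was lost without replicate 3 of 0 min, without replicate 1 or 2 of 15 min, and with scaling factors from gene ends. Abhd8, a gene of the hydrolase family, also has an end near this window, and its listed start is 1269 bp from that of Mrpl34.

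Mrps12, the small-subunit protein of the decoding centre, had 96.4, 99.8 and 93.6 CPM at 0 min, 75.2, 65.2 and 76.5 CPM at 15 min, and 88.4, 75.1 and 74.7 CPM at 30 min (chr7:28741535-28742134). Its groups did not overlap between 0 min and either later time. The log2 change at 15 min was -0.42 ± 0.12 (SE, n = 3 per group, edgeR adjusted p = 0.0265). The call was lost without replicate 1 or 2 of 0 min, without replicate 1 or 2 of 15 min, and with gene-end scaling, with adjusted p from 0.0141 to 0.194 over the 18 alternatives. The same window is the start of Sars2, so the fall cannot be assigned to 1 of the genes.

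Mrps33, a small-subunit protein of the mitochondrial lineage, had 21.1, 19.7 and 21.8 CPM at 0 min, 16.3, 12.8 and 11.9 CPM at 15 min, and 21.1, 17.0 and 18.3 CPM at 30 min (chr6:39810334-39810933). The groups of 0 and 15 min did not overlap, and the log2 change was -0.60 ± 0.19 (SE, n = 3 per group, edgeR adjusted p = 0.0462). This call held under 7 of 18 alternatives, and with both of the gene's overlapping windows summed the log2 change was -0.34. It was lost without any single library of 0 min, without replicate 2 or 3 of 15 min or of 30 min, with no filter, with the pair of groups alone and with gene-end scaling.

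Mrps21, a small-subunit protein with a bacterial counterpart, had 38.1, 40.7 and 44.8 CPM at 0 min, 26.0, 27.3 and 33.3 CPM at 15 min, and 35.9, 37.8 and 37.2 CPM at 30 min. These values come from a window at the gene's 3′ end (chr3:95862007-95862606), so they do not describe its start. All libraries of 15 min were below those of the other times. The log2 change was -0.52 ± 0.15 (SE, n = 3 per group, edgeR adjusted p = 0.0269). With both of the gene's regions summed it was -0.27 and not called, and the call was also lost without replicate 3 of 0 min, without replicate 1 or 2 of 15 min, with the pair of groups alone and with gene-end scaling.

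Mrps18b had the highest level of the members that changed, with 186, 222 and 182 CPM at 0 min, 291, 236 and 256 CPM at 15 min, and 231, 226 and 232 CPM at 30 min (chr17:35916433-35917032). Each later library was above each of 0 min. The log2 change at 15 min was 0.41 ± 0.10 (SE, n = 3 per group, edgeR adjusted p = 0.0148), and the call was lost without replicate 1 or 3 of 0 min or replicate 1 of 15 min. Ppp1r10, a regulatory subunit of protein phosphatase in the nucleus, starts 756 bp away on the opposite strand. The window's centre lay 292 bp before the listed Mrps18b start, between the starts of both genes. Most of the window thus lies outside Mrps18b, and the rise cannot be assigned to 1 of the genes.

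Mrpl16, a large-subunit protein close to the site where peptide bonds form, had 43.4, 43.4 and 40.9 CPM at 0 min, 58.3, 63.1 and 53.2 CPM at 15 min, and 38.6, 41.9 and 47.4 CPM at 30 min (chr19:11770184-11770783). The 15 min libraries were above all the others, and those of 0 and 30 min overlapped. The log2 change at 15 min was 0.45 ± 0.13 (SE, n = 3 per group, edgeR adjusted p = 0.0324). No other coding gene shared this region. The call held under 10 of 18 alternatives and was lost without any single library of 0 min, without replicate 1 or 2 of 15 min, without replicate 2 of 30 min, with no filter and with the pair of groups alone.

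Mrpl35, a large-subunit protein with a bacterial counterpart, had 20.5, 20.4 and 24.4 CPM at 0 min, 37.0, 28.8 and 29.1 CPM at 15 min, and 27.1, 27.4 and 26.3 CPM at 30 min (chr6:71823605-71824204). The groups of 0 and 15 min did not overlap, and replicate 1 of 15 min was the highest. The log2 change was 0.55 ± 0.16 (SE, n = 3 per group, edgeR adjusted p = 0.0332), the largest rise among the members. The call held under 8 of 18 alternatives and, of the 9 fits that each left out 1 library, only in that without replicate 3 of 15 min.

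**Figure D2:**
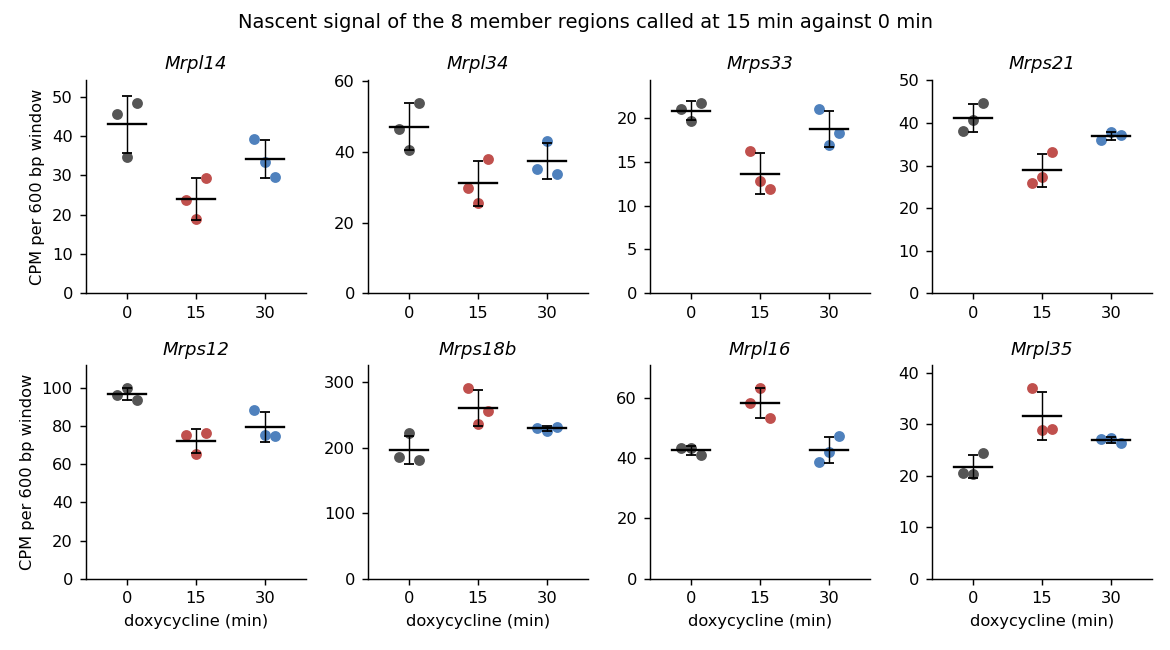
CPM in each of the 9 libraries (points) for the 8 member regions called at 15 min against 0 min, with the mean (long bar) and SD (short bars) of each time of doxycycline, on linear axes from 0. In all 8 panels the libraries of 15 min lie on 1 side of those of 0 min. The 30 min means lie between the others, but the regions were picked on the 15 min values, so this is a description only.

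The other 55 member regions gave no call at 15 min. Mrpl10, a large-subunit protein that anchors the stalk, had 40.1 ± 6.61 CPM at 0 min and 53.9 ± 11.4 CPM at 15 min (SD, n = 3), a log2 difference of 0.43 ± 0.16 (SE, edgeR adjusted p = 0.0902). Mrpl44, a large-subunit protein with a ribonuclease-like fold, had 16.1 ± 1.76 and 22.2 ± 2.55 CPM (SD, n = 3), a log2 difference of 0.46 ± 0.18 (SE, edgeR adjusted p = 0.119), and its groups did not overlap. Mrpl12 had a log2 difference of 0.02 ± 0.10, Mrps7 of 0.06 ± 0.14, Mrpl58 of 0.18 ± 0.13 and Mrpl11 of 0.22 ± 0.19 (SE, n = 3 per group). Without replicate 3 of 15 min the value for Mrps7 was -0.17, and that for Mrpl12 was -0.04. Called members had log2 changes of 0.41 or more in size, and the median SE over the members was 0.15.

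As a set, the members' log2 differences at 15 min had a median of 0.10, with 38 of 63 above 0, against 0.02 over all tested regions and -0.16 over gene-end regions. The groups of 0 and 15 min did not overlap in 11 member regions that were higher and 7 that were lower, where 13.7% and 11.8% of all tested regions, and 6.27% and 19.0% of those at gene ends, did so. The difference between the members' median and that of gene ends was 0.27, and it ranged from 0.21 to 0.29 over 18 alternatives. Those that only changed the scaling shift all regions alike and could not move this difference. The lowest and highest values came from fits that left out a library. The split of calls into higher and lower depended on the scaling. With TMM factors computed from gene-end regions, which moved the median of all regions to 0.19, the members' median was 0.26 and 9 were called, 8 higher and 1 lower (Mrpl14), in place of 3 and 5. Without replicate 3 of 15 min the median was 0.05, with 10 called, 5 higher and 5 lower.

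**Figure D3:**
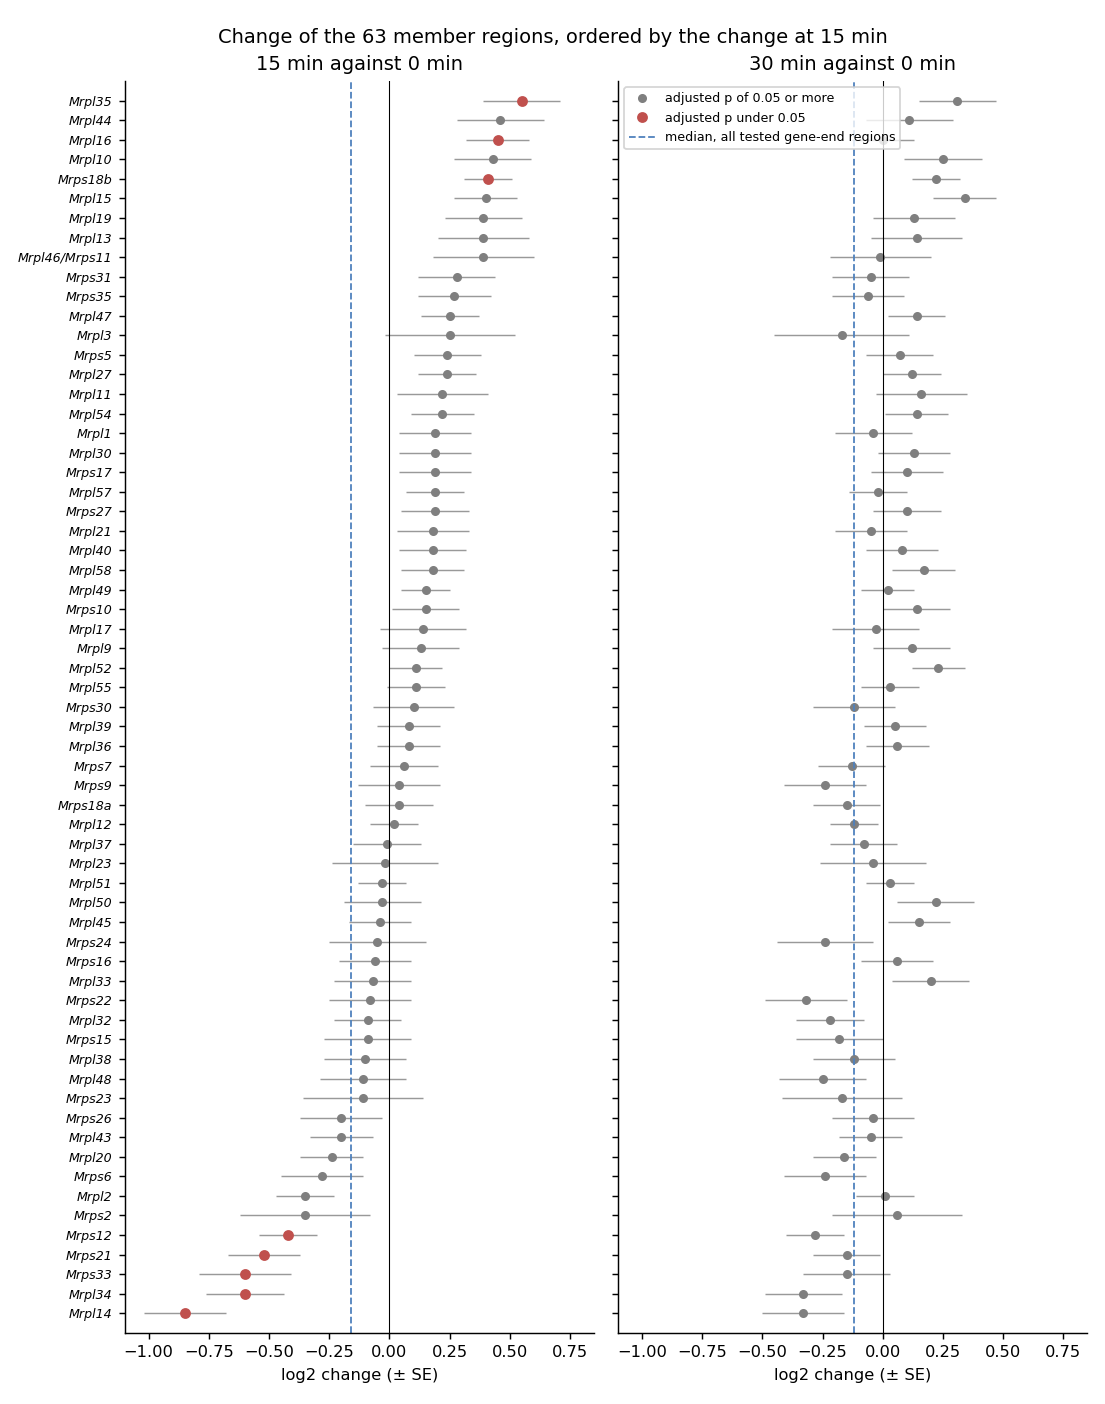
Fitted log2 change (± SE) of each of the 63 member regions at 15 min and at 30 min against 0 min, in the order of the 15 min values. Red points have an adjusted p under 0.05, and the dashed line is the median of all tested gene-end regions (-0.16 and -0.12). Both panels share the libraries of 0 min.

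Calls came from each subunit, and each class had members on both sides of 0. Of 25 large-subunit genes with a bacterial counterpart, 2 rose (Mrpl16 and Mrpl35) and 2 fell (Mrpl14 and Mrpl34), with a median log2 difference of 0.18. None of 18 large-subunit genes of the mitochondrial lineage was called by edgeR, 1 had an unadjusted p under 0.05 (Mrpl44), and their median was 0.09. Of 13 small-subunit genes with a bacterial counterpart, 2 fell (Mrps12 and Mrps21) and none rose, with a median of -0.05. Of 8 small-subunit genes of the mitochondrial lineage, 1 rose (Mrps18b) and 1 fell (Mrps33), with a median of 0.06. Differences between the classes were not tested. The 32 regions shared with another coding gene had 1 higher call, 3 lower calls and a median of 0.07, and the other 31 had 2, 2 and 0.11.

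The calls fell mostly in wide regions. The authors' regions differ in called width although all counting windows are 600 bp, and 6 of the 8 called members lay in the 15 regions at least 1000 bp wide, a limit set with the data in view. Of these 15, 2 rose (13.3%) and 4 fell (26.7%), with a median log2 difference of -0.11. Of 3333 gene-end regions of that width 4.83% rose and 11.9% fell, with the same median. The 48 narrower member regions had 1 higher and 1 lower call (2.08% each) and a median of 0.14. Of 11678 narrower gene-end regions 0.942% rose and 6.93% fell, with a median of -0.18. Across members Spearman's rho between width and log2 difference was -0.24 (63 regions, which share libraries), and it was 0.09 across 15011 gene-end regions. The members' median width was 668 bp, against 632 bp for tested gene-end regions.

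**Figure D4:**
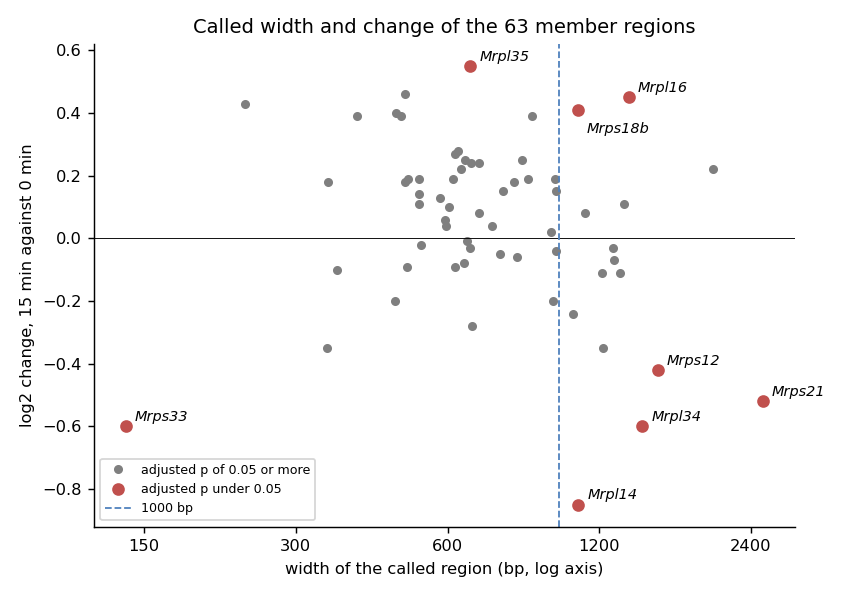
Width of the called region (bp, log axis) against the fitted log2 change at 15 min for the 63 member regions, with the 8 called members in red and named. The dashed line stands at 1000 bp, and 6 of the 8 red points lie to its right.

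At 30 min against 0 min no member was called by edgeR, where 1.74% of all tested regions and 1.27% of those at gene ends were. DESeq2 called none either, 4 members had an unadjusted p under 0.05 (Mrpl15, Mrpl52, Mrps12 and Mrps18b), and the smallest adjusted p was 0.211. Mrpl15, a large-subunit protein with a bacterial counterpart, had 62.2, 72.7 and 57.4 CPM at 0 min and 83.1, 71.0 and 89.1 CPM at 30 min, so the groups overlapped, with a log2 difference of 0.34 ± 0.13 (SE). For Mrpl35 the difference was 0.31, for Mrpl10 0.25, for Mrpl52 0.23 and for Mrps18b 0.22. The largest negative differences were those of Mrpl14 and Mrpl34 at -0.33, Mrps22 at -0.32, Mrps12 at -0.28 and Mrpl48 at -0.25. Leaving out 1 library moved Mrps22 between -0.51 and -0.17 and Mrpl48 between -0.39 and -0.13, so the order of these members is not settled. Mrps22, a small-subunit protein of the mitochondrial lineage, had 33.8, 46.8 and 38.0 CPM at 0 min and 24.6, 39.1 and 31.3 CPM at 30 min, which overlapped.

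The median log2 difference of the members at 30 min was -0.00, with 31 of 63 above 0, against -0.00 over all tested regions and -0.12 at gene ends. In 8 member regions all libraries of 30 min were above those of 0 min and in 3 they were below, where 11.0% and 9.39% of all tested regions, and 5.12% and 14.4% of those at gene ends, did so. The members' median exceeded that of gene ends by 0.12, and by 0.10 to 0.16 over the alternatives, of which those that only changed the scaling could not move it. All 63 regions had a fitted log2 difference under 0.5 in size at 30 min, with a median SE of 0.15.

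From 15 to 30 min no member was called by edgeR either, nor by DESeq2, where 0.704% of all tested regions and 0.646% of those at gene ends were. The smallest adjusted p was 0.137 (Mrpl16), and 7 members had an unadjusted p under 0.05. Mrpl16 differed by -0.45 ± 0.13 on the log2 scale (SE, n = 3 per group), and all its libraries of 30 min were below those of 15 min. Mrpl3 differed by -0.42, the region of Mrpl46 and Mrps11 by -0.40, and Mrpl44 and Mrps31, a small-subunit protein of the mitochondrial lineage, by -0.34 each. Mrpl14 differed by 0.52 ± 0.17, Mrps33 by 0.45 ± 0.19 and Mrps21 by 0.37 ± 0.15 (SE, n = 3 per group), each with all libraries of 30 min above those of 15 min. Mrps2 differed by 0.41 ± 0.27, with overlapping groups, and Mrpl2 by 0.36 ± 0.12, from a window at its 3′ end that also holds the Cul7 start.

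The members' median from 15 to 30 min was -0.09, with 17 of 63 above 0, against 0.04 at gene ends. Groups did not overlap in 4 member regions that were higher and 13 that were lower, where 7.80% and 8.17% of all tested regions, and 9.71% and 5.31% of those at gene ends, did so. Without replicate 3 of 15 min the median was -0.03. This comparison and that of 15 min with 0 min share the libraries of 15 min.

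The lists of genes that work beside the mitochondrial ribosome are to be read against the 8.25% of all tested regions called at 15 min. Genes of all these lists got their regions by the members' rule, from either gene end. The position of these windows and their neighbours were not examined, so a change may belong to a 3′ end or to another gene. By direction, 4.29% were higher and 3.96% lower. At gene ends 9.85% were called, 1.81% higher and 8.04% lower. Of 3 tested ribosomal proteins with other symbols, Dap3, Ptcd3 and Chchd1, none was called by edgeR and none had an unadjusted p under 0.05, and their log2 differences were -0.20, 0.13 and 0.01. Among 21 tested genes of ribosome assembly and rRNA modification 1 was called (4.76%). This was Mpv17l2, an inner-membrane protein needed for assembly, which fell from 131 ± 15.9 to 72.1 ± 7.40 CPM (SD, n = 3), a log2 change of -0.86 ± 0.12 (SE, edgeR adjusted p = 4.29e-05). At 30 min 1 gene of this list was called higher and 1 lower (9.52%), beside 1.74% of all tested regions and 1.27% of those at gene ends. Mpv17l2 was still called then, with a log2 change of -0.46 (edgeR adjusted p = 0.0384), though that call was lost in 5 of 9 fits that left out a library. Rbfa, which helps mature the small subunit, had 86.4, 127 and 128 CPM at 0 min and 169, 176 and 168 CPM at 30 min, a log2 rise of 0.59 ± 0.12 (SE, edgeR adjusted p = 0.0107). That rise was lost without replicate 1 of 0 min and without replicate 1 or 2 of 30 min.

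Among 14 tested mitochondrial aminoacyl-tRNA synthetase and amidotransferase genes, which charge the tRNAs the ribosome uses, 3 fell at 15 min (21.4%) and none rose. Of gene-end regions 8.04% were called lower, and of all tested regions 3.96%. Cars2 fell by 0.75 on the log2 scale (edgeR adjusted p = 0.00226), Vars2 by 0.49 (edgeR adjusted p = 0.00878) and Sars2, in the window it shares with Mrps12, by 0.42. The call of Cars2 held in every refit tried, while those of Vars2 and Sars2 were lost with TMM factors from gene ends, and that of Sars2 also in 4 of 9 fits that left out a library. None of 12 translation factor genes was called by edgeR, and 2 had an unadjusted p under 0.05. These were Pdf, the mitochondrial peptide deformylase, with a log2 difference of -0.35, and Taco1, an activator of translation of a respiratory subunit, with 0.29. Of 11 genes of mitochondrial transcription and genome upkeep 1 was called (9.09%). Tefm, the elongation factor of the mitochondrial polymerase, rose by 0.32 ± 0.09 on the log2 scale (SE, edgeR adjusted p = 0.0317), a call lost in 5 of 9 fits that left out a library. Of 14 mitochondrial stress response genes 1 was called (7.14%). Gdf15, a secreted stress cytokine, fell by 0.64 (edgeR adjusted p = 0.0034), a call that held in every refit tried. At 30 min it was again the only call of its list (7.14%, beside 1.74% of all tested regions and 1.27% at gene ends). The log2 change was then -0.55 (edgeR adjusted p = 0.0312). That later call held in 4 of 9 fits that left out a library and was lost with TMM factors from gene ends.

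The products of mitochondrial translation join nuclear-encoded subunits in oxidative phosphorylation. Of 67 tested nuclear genes for these subunits, 5 fell at 15 min (7.46%, beside 8.04% of gene-end regions) and none rose, with a median log2 difference of 0.01. Atp5d, a subunit of the ATP synthase rotor, had 45.5, 40.5 and 48.0 CPM at 0 min, 17.2, 15.1 and 22.8 CPM at 15 min, and 24.6, 26.1 and 16.4 CPM at 30 min. It was lower in every later library, with log2 changes of -1.29 ± 0.18 and -0.99 ± 0.18 (SE, edgeR adjusted p = 5.51e-05 and 0.00452). At 30 min Atp5d was the only call of this list (1.49%, beside 1.74% of all tested regions and 1.27% of those at gene ends). The other falls at 15 min were Cox6a1 at -0.64, Ndufv3 at -0.71, Sdhc at -0.53 and Ndufa2 at -0.43. Those of Atp5d and Cox6a1 held in every refit tried. Those of Sdhc, Ndufv3 and Ndufa2 were lost with TMM factors from gene ends and in 5, 3 and 2 of 9 fits that left out a library. Of 62 cytosolic ribosomal protein genes, 5 rose (8.06%, beside 1.81% of gene-end regions and 4.29% of all tested regions) and none fell. Their median was 0.16, and Rps27 and Rpl7a were among those that rose. The call of Rps27 held in every refit tried, while Rpl7a and Rps27a were each lost in 3 of 9 fits that left out a library and Rpl3 in 8. Differences between these lists and the members were not tested. The lists also overlap in windows, as those of Ndufb5 and Ndufs6 are the windows of Mrpl47 and Mrpl36.

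**Figure D5:**
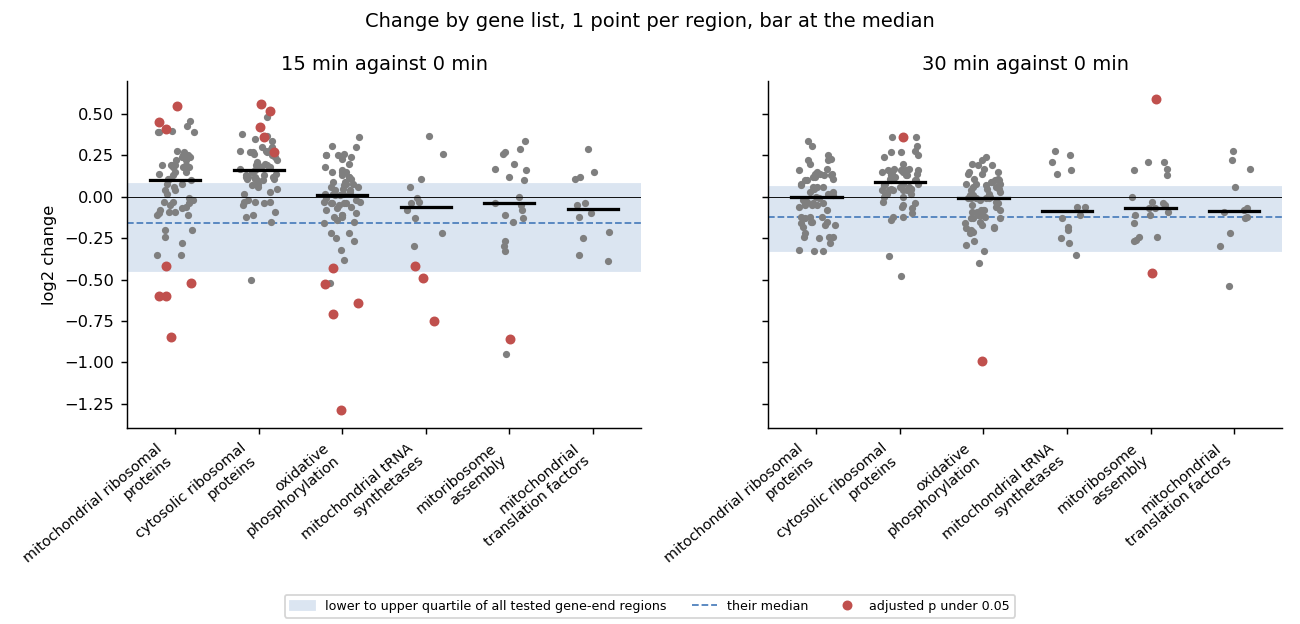
Fitted log2 change at 15 min and at 30 min against 0 min for the members and 5 other gene lists, 1 point per region, with the median as a bar and called regions in red. The shaded band runs from the lower to the upper quartile of all tested gene-end regions. Members have calls on both sides of 0 at 15 min and none at 30 min.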

How the data were processed

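The submitters' processing notes name HISAT2, featureCounts, DESeq2 1.26.0 and mm10. The roles of these tools are not given in the sources used here. The authors deposited raw read counts per 600 bp window, unnormalised, and region positions with their called width, a value of another kind (other), per the file headers. Whole-table counts were tested with edgeR 4.0.16 in R 4.3.3 (quasi-likelihood test, filterByExpr, TMM factors, time as a factor, all 9 libraries), with Benjamini-Hochberg adjustment over 54299 of 174289 regions and a threshold of 0.05, and CPM used the same factors. The labels do not say that a replicate number marks a shared culture or day, so the main fit used no block. Correlations across times ran from -0.0479 to 0.175 between libraries of the same number. Between libraries of other numbers they ran from -0.199 to 0.102, which does not settle whether the replicates pair. Regions were assigned to genes of protein-coding and other biotypes with RefSeq's GRCm38.p6 annotation, within 1 kb of a gene end. Alternatives used DESeq2 1.42.0, other scaling, filters, regions and left-out libraries. The fit was tested on simulated data. The libraries differed by more than counting noise, with a replicate coefficient of variation of 15.1%. Named members are those called, the 5 largest differences each way per comparison, the 5 highest and lowest levels, those without a region, those sharing one, and a fixed list (Mrps12, Mrps7, Mrps14, Mrps18b, Mrpl11, Mrpl12, Mrpl58, Mrpl16). Of other lists, those called and the 2 of smallest p. Members and lists were chosen with earlier results of these data known.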

Additional observations from a re-analysis of the deposited data

How the results depend on the processing

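The count of members called at 15 min against 0 min was 8. It was 5 with no filter on low counts and 4 with the pair of groups alone, and 2 to 10 with 1 library left out in turn, the lowest without replicate 3 of 0 min and without replicate 1 or 2 of 15 min, followed by 3 without replicate 1 of 0 min, and 5 without replicate 2 of 0 min or of 30 min. Mrpl14 was called in all 18 refits or rescalings. With the replicate number as a block 8 were called, 3 higher and 5 lower, and the block changed no other count of calls among the members. The 30 min comparisons gave 0 calls under every alternative. The members' median log2 difference at 15 min was 0.26 with gene-end TMM factors and 0.05 to 0.14 with 1 library left out. At 30 min it was -0.02 with library size alone, 0.11 with gene-end factors, -0.03 with no filter, 0.01 over windows that overlap no other, -0.02 over members within 1 kb of a listed start (chosen after seeing the data), and -0.02 to 0.02 with 1 library left out. From 15 to 30 min it was -0.13 to -0.03 with 1 library left out. The median level at 0 min was 43.0 CPM with library size alone, 42.9 with DESeq2 size factors, 40.1 with gene-end factors, 41.8 with a 500 bp limit, and 42.0 to 43.2 with 1 library left out. The cause of these shifts was not tested. No result turned its direction past the threshold, and the lowest count of a member window in a library was 19 reads, which limits the precision for the low members.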
